A study of Mus musculus with 10 samples.

Results

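The amino acid, glucose and lactate transporters of CD4-positive spleen cells were followed in NOD and B10 mice before and after stimulation. All genes whose symbol is Slc1a, Slc2a, Slc3a, Slc6a, Slc7a, Slc16a, Slc36a, Slc38a or Slc43a with a number, with or without one more letter, were taken, which gave 87 of the 19938 genes tested. The symbols Slc2a4rg-ps, Slc6a19os and Slc7a6os start the same way but name other genes, and were kept apart. Cells came from the spleens of female mice of 8 weeks, of the strain B10 (genotype B10Br) or NOD (genotype NODk), and were collected with CD4 magnetic beads. Each strain had 3 arrays in the basal state (T0) and 2 arrays after 4 hours with PMA at 10 ng/ml and ionomycin at 1 uM (T1). T0 is described as the basal state, and whether those cells were also cultured is unclear from the labels. T1 replicate 1 is not analysed here. The samples are labelled biological replicates without naming animals, so p-values measure the spread between these samples.

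Cells take up amino acids, sugars and lactate through these solute carriers. Resting T cells need little of them, and on activation they import leucine, glutamine, arginine and glucose for growth, while lactate leaves through monocarboxylate carriers that move it with a proton. PMA activates protein kinase C and ionomycin lets calcium in, and together they bypass the T cell receptor. Slc7a5 carries leucine and other large neutral amino acids and reaches the membrane only with Slc3a2, the CD98 heavy chain. Slc1a5 and the Slc38a carriers bring in glutamine, Slc7a1 brings in arginine and lysine, and Slc7a11 brings in cystine. Slc2a1 and Slc2a3 are the glucose transporters GLUT1 and GLUT3, and Slc16a1 and Slc16a3 are the lactate carriers MCT1 and MCT4.

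Values are log2 intensities as the authors deposited them, with array medians between 6.18 and 6.23, so a difference of 1 is 2-fold. The number of arrays limits the precision. As a mark of values near background, the 95th percentile of the means of 1015 olfactory receptor genes was used, at 5.68. Of the 87 transporters, 51 had a mean over all arrays above it and 36 at or below it. Markers of CD4 T cells were high (mean of 7 markers 10.66 to 10.86 at T0 and 9.77 to 10.12 at T1), but markers of other cells were present too. The mean of 9 monocyte and macrophage markers was 7.65 to 8.15 in B10 and 8.43 to 8.77 in NOD at T0, and 6.57 to 6.72 and 6.88 to 7.19 at T1. The mean of 7 B cell markers was lower at T1 likewise, going from 8.19 to 8.45 in B10 and 8.47 to 8.80 in NOD at T0 to between 6.92 and 7.23 on the T1 arrays. Red cell markers (mean of 5) ran from 7.07 to 9.21 on the B10 arrays and from 9.87 to 10.49 on the NOD arrays. In whole samples, fewer cells of a type and less RNA per cell cannot be told apart.

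With stimulation, Slc7a1, Slc7a5, Slc1a5 and Slc16a1 rose in both strains, while Slc7a7, Slc43a2, Slc38a2 and Slc16a3, which carry the same kinds of substrate, fell in both. With limma and Benjamini-Hochberg adjustment over all genes (adjusted p under 0.05, here "called"), 27 of 87 transporters were called in B10, of which 10 rose and 17 fell. Of all genes 31.8% were called in B10 (13.7% higher and 18.1% lower), so the 31% of the transporters lies at that background. In NOD, 29 were called, of which 17 rose and 12 fell, or 33.3% against 35.5% of all genes (16.1% higher and 19.5% lower). The median difference over the 87 was 0.025 in B10 and 0.14 in NOD, against 0.031 and 0.081 over all genes. Both strains called 20 of them the same way (9 rose, 11 fell) and none in opposite directions, while 7 were called in B10 alone and 9 in NOD alone. The share of such overlaps over all genes was not counted, so they are not a trait shown for the 87 transporters. Scaled to one 75th percentile per array, 11 rose and 12 fell in B10, and 27 rose and 11 fell in NOD. That scaling moved the median of all genes in NOD from 0.081 to 0.21. Without both B10 arrays of replicate 3, 17 were called in B10, and among the genes described next the B10 calls of Slc2a3, Slc2a6, Slc3a1, Slc6a6, Slc7a7, Slc7a8 and Slc7a11 ended.

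**Figure D1:**
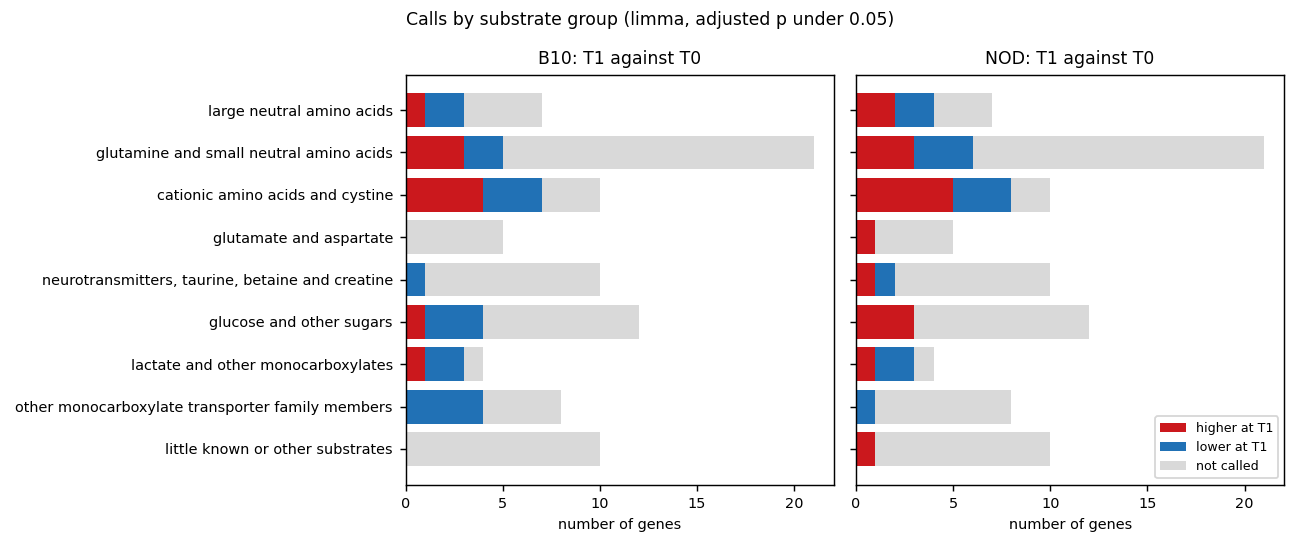
Number of transporters called higher, called lower or not called at T1 against T0 in B10 (left) and NOD (right), by substrate group. The group for cationic amino acids and cystine had 7 of 10 members called in B10 and 8 of 10 in NOD, and the 5 glutamate and aspartate carriers had none called in B10 and 1 in NOD. The 4 carriers of lactate and other monocarboxylates had 3 called in each strain. Of all genes, 31.8% were called in B10 and 35.5% in NOD.

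**Figure D2:**
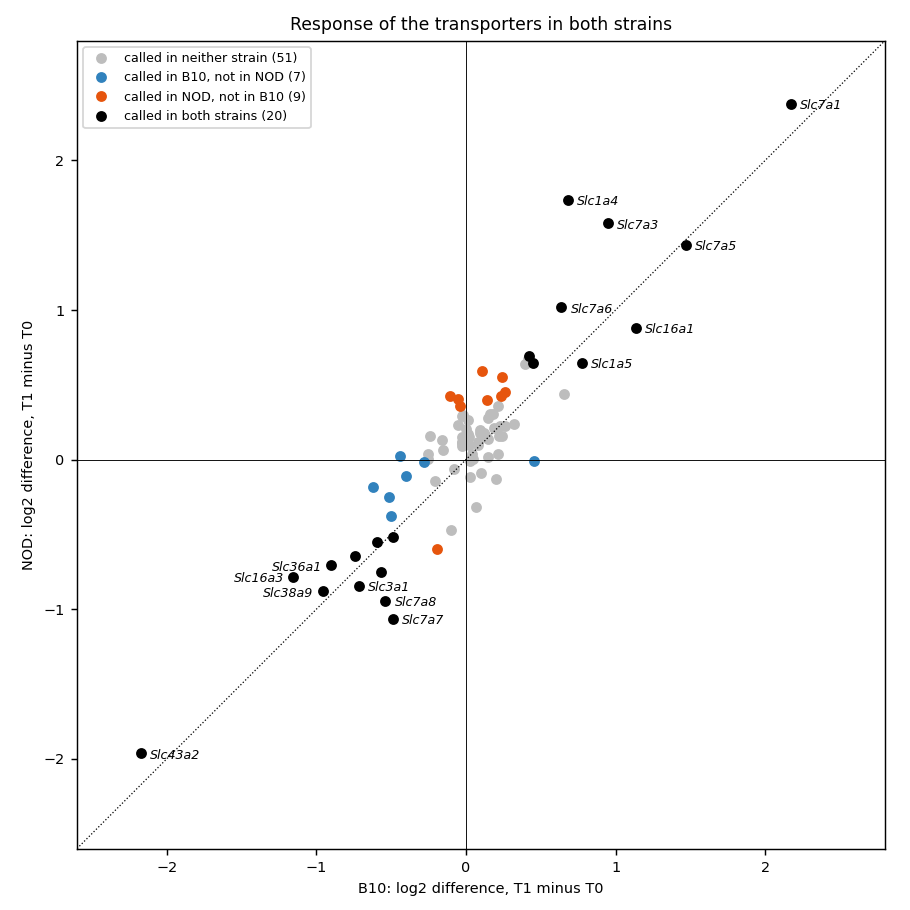
Log2 difference T1 minus T0 in B10 (horizontal) and NOD (vertical) for each of the 87 transporters, coloured by the strains in which it was called, with the line of equal response dotted. Slc7a1 lies at 2.18 and 2.38 and Slc43a2 at -2.17 and -1.96, and the 20 genes called in both strains all lie in the quadrants of equal sign.

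Sequences before the start site are shown for 4 members whose upstream stretch holds a motif searched here and whose levels moved in different ways: Slc16a1 rose, Slc36a1 fell, Slc43a1 differed between strains and Slc7a11 was called in B10 alone. The motifs were CACGTG (E-box, the site bound by Myc with Max and by TFEB) and TGATGNAAN (the composite element bound by ATF4 with C/EBP), on both strands of the 250 bases before the start, from RefSeq (GRCm38.p6). Of the 87 members, 64 matched, with 85 start sites. Capitals mark the motif, each stretch reads 5′ to 3′ on the gene's strand, and no 2 matches overlap.
Slc16a1, chr3:104638414-104638663, plus strand: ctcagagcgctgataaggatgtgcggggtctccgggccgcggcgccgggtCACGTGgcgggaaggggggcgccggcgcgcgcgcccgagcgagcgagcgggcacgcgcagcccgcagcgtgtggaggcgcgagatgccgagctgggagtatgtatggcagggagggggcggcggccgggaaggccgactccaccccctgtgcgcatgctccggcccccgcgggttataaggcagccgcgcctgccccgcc
Slc36a1, chr11:55204090-55204339, plus strand: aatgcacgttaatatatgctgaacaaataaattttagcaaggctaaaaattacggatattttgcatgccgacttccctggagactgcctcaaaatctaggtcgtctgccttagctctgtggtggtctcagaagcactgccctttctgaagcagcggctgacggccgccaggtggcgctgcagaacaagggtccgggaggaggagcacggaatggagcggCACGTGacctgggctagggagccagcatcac
Slc43a1, chr2:84840073-84840322, plus strand: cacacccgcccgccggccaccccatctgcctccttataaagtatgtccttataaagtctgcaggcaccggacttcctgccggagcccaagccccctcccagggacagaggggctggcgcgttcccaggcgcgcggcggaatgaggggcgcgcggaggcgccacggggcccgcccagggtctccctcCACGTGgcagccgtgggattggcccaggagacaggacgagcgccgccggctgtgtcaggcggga
Slc7a11, chr3:50443614-50443863, minus strand: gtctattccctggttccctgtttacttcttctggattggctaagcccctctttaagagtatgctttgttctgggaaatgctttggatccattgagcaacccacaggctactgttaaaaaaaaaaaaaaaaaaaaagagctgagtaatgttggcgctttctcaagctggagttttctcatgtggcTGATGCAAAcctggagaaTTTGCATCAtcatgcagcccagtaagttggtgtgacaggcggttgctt
The E-box stood 200 bases before the start of Slc16a1, 31 before that of Slc36a1 and 64 before that of Slc43a1. It was in 11 of the 85 member stretches (12.9%) and in 6.02% of all 32851 stretches of the same length. The other members with it included Slc38a5, Slc38a7 and Slc6a3, which were not called with stimulation. The rest were Slc16a12, Slc1a6, Slc1a7, Slc6a16 and Slc7a14, which lay at or below the background mark. Of these, Slc16a12 was called lower in B10 (-0.44, limma, adjusted p = 0.0228) and Slc1a7 higher in NOD (0.40, adjusted p = 0.0165). Slc7a11 held 2 composite elements in opposite orientation, 66 and 48 bases before the start, and 4 member stretches (4.71%) held the element against 3.44% of all. A match is a description of letters, not of binding.

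Among the carriers of large neutral amino acids, Slc7a5 rose and Slc43a2 fell in both strains. Slc7a5 read 8.82, 9.08 and 9.53 on the B10 T0 arrays and 10.44 and 10.79 at T1. In NOD it read 9.30, 9.21 and 9.37 at T0 and 10.61 and 10.85 at T1. All 4 stimulated arrays lay above all 6 unstimulated ones, and the rise was 2.77-fold in B10 (log2 difference 1.47 ± 0.18, limma SE, adjusted p = 2.34e-05) and in NOD 2.71-fold (1.44 ± 0.18, adjusted p = 2.95e-05). Its heavy chain Slc3a2 was bright and moved less, with 11.41, 11.55 and 11.49 at T0 and 11.78 and 11.67 at T1 in B10. In NOD, Slc3a2 read 11.34, 11.43 and 11.46 at T0 and 11.79 and 12.14 at T1. The groups did not overlap in either strain, but Slc3a2 was called in NOD alone (0.55 ± 0.11, adjusted p = 0.00177), with 0.24 ± 0.11 in B10 (adjusted p = 0.137), which passed with eBayes trend and robust settings. The responses of Slc3a2 were not shown to differ between strains (interaction 0.31, 95% interval -0.04 to 0.66).

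Slc43a2 encodes LAT4, a facilitator of leucine, phenylalanine and methionine that needs no heavy chain. On the B10 arrays it read 8.17, 7.89 and 8.09 at T0 against 5.79 and 5.96 at T1, and on the NOD arrays 7.97, 8.06 and 7.84 against 6.20 and 5.79. Every stimulated array lay far below every unstimulated one, near the background mark of 5.68. The fall was 4.5-fold in B10 (-2.17 ± 0.13, adjusted p = 8e-08) and in NOD 3.9-fold (-1.96 ± 0.13, adjusted p = 1.91e-07), and a fold change that ends near background may be understated. Slc7a8, another light chain of CD98 for large neutral amino acids, fell from 5.57, 5.91 and 5.99 to 5.37 and 5.20 in B10 (-0.54 ± 0.15, adjusted p = 0.012). In NOD it fell from 6.72, 6.39 and 6.79 to 5.74 and 5.64 (-0.95 ± 0.15, adjusted p = 0.000205). Monocyte and macrophage markers fell beside it (8 of 9 called lower in each strain, with a median of -1.48 in B10 and -1.77 in NOD). Neutrophil markers fell too (4 of 8 called lower in B10 and 6 in NOD), where 18.1% and 19.5% of all genes fell. Of 7 CD4 T cell markers, 4 were called lower in each strain (medians -0.98 in B10 and -0.95 in NOD) and 1 higher in NOD. Of 7 B cell markers, 5 were called lower and 1 higher in B10, and 6 lower in NOD. None of the 5 red cell markers was called with stimulation. The part of these cells in the result was not tested. The call of Slc7a8 in B10 ended without B10 T1 replicate 3 (range over omissions of single arrays -0.67 to -0.45). At T1 Slc7a8 lay near or below the background mark in both strains, so its falls may be understated too.

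**Figure D3:**
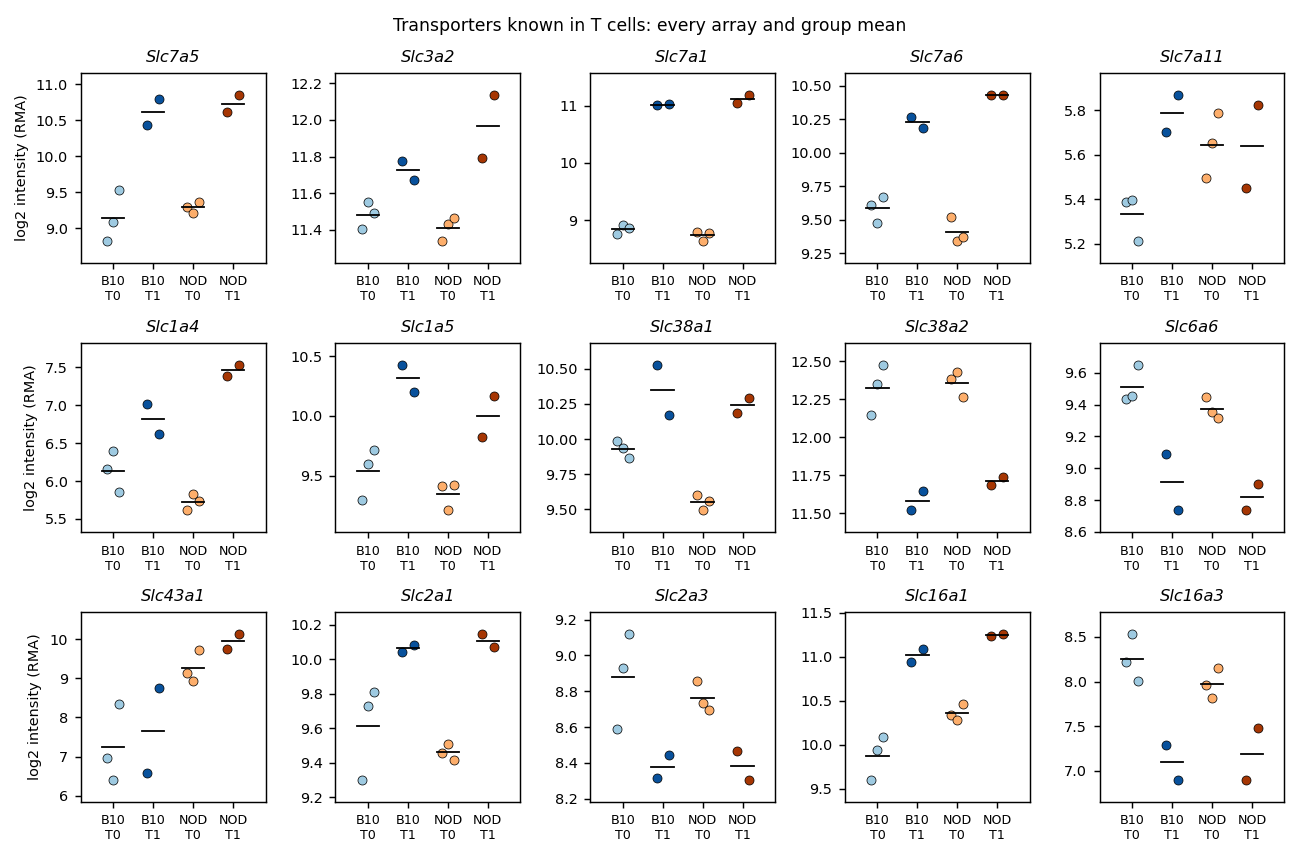
Log2 intensity of 15 transporters known in T cells on each array (points, replicates from left to right) with the group mean (line), in B10 and NOD at T0 and T1; each panel has its own vertical axis. Slc7a1 reads 8.64 to 8.91 at T0 and 11.01 to 11.19 at T1, whereas the B10 arrays of Slc43a1 spread from 6.41 to 8.74.

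Slc7a1, the arginine and lysine carrier CAT1, had the largest rise of the 87 genes in both strains. Its B10 arrays read 8.75, 8.91 and 8.87 at T0 and 11.01 and 11.03 at T1, and its NOD arrays 8.80, 8.64 and 8.78 at T0 and 11.04 and 11.19 at T1. All T1 arrays lay far above all T0 arrays, and the rise was 4.52-fold in B10 (2.18 ± 0.10, adjusted p = 8.72e-09), with in NOD 5.19-fold (2.38 ± 0.10, adjusted p = 5.99e-09). Slc7a6, the CD98 light chain that exchanges arginine for neutral amino acids, read 9.61, 9.48 and 9.67 at T0 and 10.27 and 10.18 at T1 in B10. In NOD it read 9.52, 9.34 and 9.37 at T0 and 10.43 on both T1 arrays. It rose by 0.64 ± 0.10 in B10 (adjusted p = 0.000233) and by 1.02 ± 0.10 in NOD (adjusted p = 4.25e-06), without overlap between states.

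Slc7a3, a further cationic carrier (CAT3), was below the background mark before stimulation, at 5.47, 4.98 and 4.58 in B10 and 4.66, 5.47 and 5.30 in NOD. At T1 it read 6.17 and 5.74 in B10 and 6.82 and 6.62 in NOD, above all T0 arrays. The rise was 0.95 ± 0.26 in B10 (adjusted p = 0.0117) and 1.58 ± 0.26 in NOD (adjusted p = 0.000301), and the call in B10 ended without B10 T1 replicate 2 (range over omissions 0.73 to 1.18). Slc7a2, the carrier CAT2, lay below the mark and was not called in either strain.

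RNA of Slc7a11, the cystine carrier, was near the background mark. It read 5.39, 5.39 and 5.21 at T0 and 5.70 and 5.87 at T1 in B10, and in NOD 5.50, 5.65 and 5.79 at T0 and 5.45 and 5.82 at T1. In B10 it rose by 0.45 ± 0.13 (adjusted p = 0.0168), a call that ended without B10 T0 or T1 replicate 3 (range 0.37 to 0.54), and in NOD, where the states overlapped, the value was -0.01 ± 0.13 (adjusted p = 0.971). The interaction was -0.46 (adjusted p = 0.479).

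Slc7a7, the arginine and leucine exchanger that macrophages use, fell from 6.25, 6.29 and 6.38 to 5.76 and 5.88 in B10 (-0.49 ± 0.13, adjusted p = 0.0106). In NOD it fell from 7.13, 6.86 and 7.22 to 5.84 and 6.17 (-1.06 ± 0.13, adjusted p = 2.83e-05). These T1 values of Slc7a7 lay near the background mark of 5.68, so its falls may be understated. Within each of the 4 groups, its arrays stood in the order of the monocyte and macrophage marker mean. That order was met by 5 of the 87 transporters and 1.21% of all genes. Besides Slc7a7 these were Slc7a5 and Slc16a1, which rose in both strains, Slc16a13, which fell in B10 alone, and Slc16a10, not called. The part of these cells in the result was not tested. The call of Slc7a7 in B10 ended without B10 T1 replicate 2 (range -0.55 to -0.42). Slc3a1, the partner of the kidney cystine carrier, fell by 0.71 in B10 (adjusted p = 0.00908) and by 0.84 in NOD (adjusted p = 0.00297), the former not without B10 T1 replicate 3 (range -0.83 to -0.58). Slc38a9, a lysosomal arginine sensor that signals to mTORC1, fell by 0.96 (adjusted p = 2.88e-05) and by 0.88 (adjusted p = 6.12e-05).

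Carriers of glutamine and small neutral amino acids moved in both directions. Of 21 measured, 3 rose and 2 fell in B10 (23.8% called, against 31.8% of all genes), and 3 rose and 3 fell in NOD (28.6%, against 35.5%). Slc1a5 (ASCT2), a sodium-dependent exchanger of glutamine, read 9.30, 9.60 and 9.72 at T0 and 10.43 and 10.20 at T1 in B10, and 9.41, 9.21 and 9.42 at T0 and 9.83 and 10.17 at T1 in NOD. It rose by 0.78 ± 0.15 in B10 (adjusted p = 0.000921) and 0.65 ± 0.15 in NOD (adjusted p = 0.00343), and all T1 arrays lay above all T0 arrays. The NOD call ended without NOD T1 replicate 3 (range 0.48 to 0.82).

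Slc38a1 (SNAT1) read 9.99, 9.93 and 9.87 at T0 and 10.53 and 10.17 at T1 in B10, and 9.60, 9.49 and 9.56 at T0 and 10.19 and 10.29 at T1 in NOD. It rose by 0.42 ± 0.11 in B10 (adjusted p = 0.0116) and by 0.69 ± 0.11 in NOD (adjusted p = 0.000342), but the B10 call ended without B10 T1 replicate 2 (range 0.24 to 0.60) and with its 2 probe sets averaged. Its relative Slc38a2 (SNAT2), which amino acid shortage induces in many cells, went the other way. It read 12.14, 12.35 and 12.48 at T0 and 11.52 and 11.65 at T1 in B10, and 12.38, 12.43 and 12.27 at T0 and 11.69 and 11.74 at T1 in NOD. The fall was -0.74 ± 0.11 (adjusted p = 0.00017) and -0.65 ± 0.11 (adjusted p = 0.00053), with no overlap between states. Slc36a1, a proton-coupled carrier of lysosomes and the cell surface, also fell (-0.90 in B10, adjusted p = 4.65e-05, and -0.71 in NOD, adjusted p = 0.000361). The fall of its relative Slc36a4 was called in NOD alone (-0.60, adjusted p = 0.000331, against -0.19 in B10, adjusted p = 0.173). The interaction for Slc36a4 was -0.40 and did not pass (limma, adjusted p = 0.397).

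Slc1a4 (ASCT1), the exchanger of alanine, serine and cysteine, showed the widest gap in response between the strains. In B10 it read 6.16, 6.40 and 5.86 at T0 and 7.01 and 6.63 at T1, and in NOD 5.61, 5.82 and 5.73 at T0 and 7.38 and 7.54 at T1. NOD arrays thus lay below all B10 arrays at T0 and above both at T1. The rise was 1.6-fold in B10 (0.68 ± 0.16, adjusted p = 0.00403) and in NOD 3.33-fold (1.74 ± 0.16, adjusted p = 1.9e-06), and the B10 call ended without B10 T1 replicate 2 (range 0.49 to 0.88). The interaction was 1.06 (95% interval 0.57 to 1.54) and did not pass (adjusted p = 0.0939, between 0.014 and 0.252 over its alternatives). It passed with eBayes trend and robust settings (adjusted p = 0.046) and with the red cell marker mean as covariate (adjusted p = 0.014).

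Among 12 carriers of glucose and other sugars, 1 rose and 3 fell in B10, and 3 rose and none fell in NOD. That was 33.3% called in B10 and 25% in NOD, against 31.8% and 35.5% of all genes. Slc2a1 read 9.30, 9.73 and 9.81 at T0 and 10.05 and 10.08 at T1 in B10, and 9.46, 9.51 and 9.42 at T0 and 10.15 and 10.07 at T1 in NOD. It rose by 0.45 ± 0.13 in B10 (adjusted p = 0.0199) and by 0.65 ± 0.13 in NOD (adjusted p = 0.0019), with all T1 arrays above all T0 arrays. The B10 call ended without B10 T0 replicate 1 or either B10 T1 array (range 0.29 to 0.55). Slc2a3, the glucose carrier of higher affinity, read 8.59, 8.93 and 9.12 at T0 and 8.31 and 8.44 at T1 in B10, and 8.85, 8.74 and 8.70 at T0 and 8.46 and 8.31 at T1 in NOD. It fell in B10 (-0.50 ± 0.14, adjusted p = 0.0138), a call that ended without B10 T1 replicate 2 or B10 T0 replicate 3 (range -0.65 to -0.38), and had a value of -0.38 ± 0.14 in NOD (adjusted p = 0.0523). The NOD value passed without B10 T0 replicate 1 or 3 and with eBayes trend and robust settings.

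Among the other sugar carriers, Slc2a4, the insulin-regulated GLUT4 of muscle and fat, rose in NOD (0.45 ± 0.13, adjusted p = 0.013, not without NOD T1 replicate 3), against 0.26 in B10 (adjusted p = 0.15, which passed without B10 T0 replicate 3). Slc2a9, a urate carrier, fell in B10 (-0.62 ± 0.11, adjusted p = 0.000538), with -0.18 in NOD (adjusted p = 0.212). Slc2a6 fell in B10 (-0.40, adjusted p = 0.0121), a call that ended without B10 T1 replicate 3 and with every array scaled to one 75th percentile. The calls in 1 strain were not shown to differ from the other strain by the interaction (adjusted p = 0.78 for Slc2a4 and 0.41 for Slc2a9).

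Slc16a1 rose and Slc16a3 fell. Slc16a1 read 9.60, 9.94 and 10.09 at T0 and 10.94 and 11.09 at T1 in B10, and 10.34, 10.28 and 10.47 at T0 and 11.23 and 11.26 at T1 in NOD. Its rise was 2.2-fold in B10 (1.14 ± 0.13, adjusted p = 1.84e-05) and in NOD 1.84-fold (0.88 ± 0.13, adjusted p = 0.000165), above all T0 arrays of the same strain. Slc16a3 read 8.22, 8.53 and 8.00 at T0 and 7.29 and 6.90 at T1 in B10, and 7.96, 7.82 and 8.15 at T0 and 6.90 and 7.48 at T1 in NOD, so every stimulated array was lower. The log2 difference was -1.16 ± 0.19 in B10 (adjusted p = 0.000376) and -0.78 ± 0.19 in NOD (adjusted p = 0.00645), the latter not without NOD T1 replicate 2 (range -1.08 to -0.49). Slc16a7 (MCT2), below the background mark, fell by 0.57 in B10 (adjusted p = 0.0193) and by 0.75 in NOD (adjusted p = 0.00355), calls that ended in B10 without B10 T0 replicate 1 or 2 or B10 T1 replicate 2, and in NOD without NOD T1 replicate 2. Of 8 other members of that family, 4 fell in B10 and 1 in NOD (12.5%), and none rose, where 18.1% and 19.5% of all genes fell. Emb and Bsg encode the chaperones that bring MCT proteins to the membrane. Emb fell by 2.26 in B10 (adjusted p = 2.79e-08) and by 2.71 in NOD (adjusted p = 8.02e-09), while Bsg had values of 0.23 (adjusted p = 0.256) and 0.17 (adjusted p = 0.366).

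Slc6a6, the taurine transporter, was the single member of the Slc6a family called with stimulation in both strains. It read 9.44, 9.45 and 9.65 at T0 and 9.09 and 8.74 at T1 in B10, and 9.45, 9.35 and 9.31 at T0 and 8.74 and 8.90 at T1 in NOD. The fall was -0.60 ± 0.12 (adjusted p = 0.0018) and -0.55 ± 0.12 (adjusted p = 0.00313), with all T1 arrays below all T0 arrays, and without both B10 arrays of replicate 3 the B10 value was -0.35. The Slc6a family had 20 genes measured, most of which carry neurotransmitters or serve kidney and gut. Most of the 20 lay at or below the background mark, where 6.49% (B10) and 13.1% (NOD) of all genes were called. In B10, 1 of the 20 was called (5%, against 31.8% of all genes), and in NOD 2 were (10%, against 35.5%). The second in NOD was Slc6a13, a GABA and taurine carrier near background, which read 4.87, 4.97 and 4.74 at T0 and 5.37 and 5.19 at T1 (0.42 ± 0.11, adjusted p = 0.0113, not without NOD T1 replicate 2). In B10 it read 5.01, 4.92 and 4.73 at T0 and 4.82 and 4.75 at T1. Of the 5 glutamate and aspartate carriers, Slc1a7 was called in NOD (0.40, adjusted p = 0.0165, not without NOD T0 replicate 1 or 3 or NOD T1 replicate 3), also below the mark. None of the 5 was called in B10, and the 1 in NOD makes 20%, against 35.5% of all genes. Of these 5 carriers, 2 lay above the background mark.

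No transporter passed the test of a difference in response between strains. With limma, 0 of 87 passed, against 0.246% of all genes. Without adjustment 12 of the 87 had a p under 0.05, a count that was not made over all genes, so no excess can be read from it. With eBayes trend and robust settings or the red cell covariate 1 passed, which was Slc1a4. For 80 of the 87, the 95% interval of the difference lay within 1 of 0 on the log2 scale, so that a larger difference in response is outside the interval. The interval for Slc7a5 was -0.58 to 0.51 and that for Slc7a1 was -0.10 to 0.51. The interval reached past 1 for Slc1a4, Slc7a3, Slc16a10, Slc38a5, Slc43a1, Slc43a3 and Slc6a9.

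**Figure D4:**
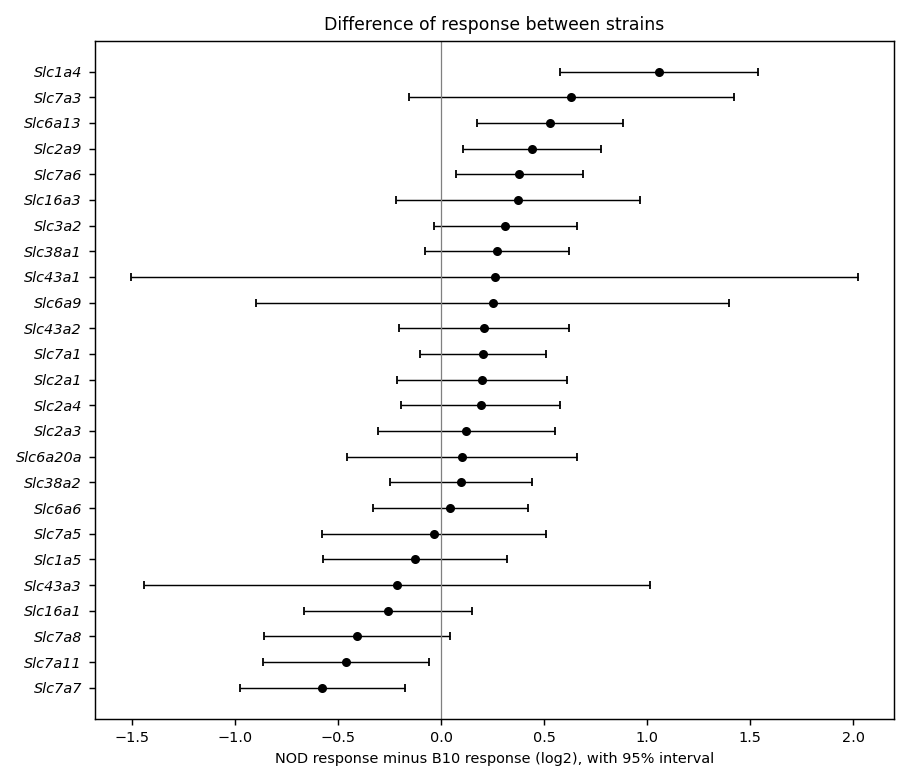
NOD response minus B10 response (log2, point) with limma's 95% interval (bar) for the 25 transporters whose arrays are given one by one. Slc1a4 is highest at 1.06 and Slc7a7 lowest at -0.58, and the widest interval, from -1.51 to 2.02, is that of Slc43a1.

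Between the strains at T0, 10 transporters were called (11.5%, against 5.79% of all genes), of which 8 were higher and 2 lower in NOD, where 3.44% of all genes were higher and 2.35% lower. At T1, 4 were called, all higher in NOD (4.6%, against 3.6% of all genes, with 1.77% higher and 1.83% lower). The T0 calls fell to 3 without B10 T0 replicate 1 or 2 or NOD T0 replicate 1 or 3, and the T1 calls to 0 without B10 T1 replicate 2 or NOD T1 replicate 3. They fell to 2 without B10 T0 replicate 1, NOD T0 replicate 1 or 3, or NOD T1 replicate 2, and rose to 7 without B10 T0 replicate 3.

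The largest strain differences moved with red cell markers. Slc43a1 (LAT3), a leucine and phenylalanine facilitator, read 6.97, 6.41 and 8.35 on the B10 T0 arrays, 6.58 and 8.74 at T1, 9.15, 8.94 and 9.73 on the NOD T0 arrays, and 9.76 and 10.13 at T1. Both B10 arrays of replicate 3 stood well above the other B10 arrays and below all NOD arrays. The mean of the red cell genes Alas2, Klf1 and Car2 on the same arrays was 8.16, 7.31 and 9.38 in B10 at T0, 7.74 and 9.48 at T1, 10.47, 10.13 and 10.68 in NOD at T0, and 10.31 and 10.72 at T1. At T0 Slc43a1 was 4.07-fold higher in NOD (2.03 ± 0.51, adjusted p = 0.0372), a call that ended without B10 T0 replicate 1 or 2 or any NOD T0 array (range 1.61 to 2.58), and at T1 the value was 2.29 ± 0.63 (adjusted p = 0.0688). Without B10 T0 or T1 replicate 3 the T1 value passed (range 1.20 to 3.37).

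Slc6a9, the glycine transporter GLYT1 that supplies glycine for heme synthesis in red cell precursors, followed the same arrays. It read 6.87, 6.38 and 7.83 in B10 at T0 and 6.83 and 8.02 at T1, and 8.80, 8.64 and 9.14 in NOD at T0 and 9.37 and 9.63 at T1. It was higher in NOD at T0 (1.83 ± 0.33, adjusted p = 0.00669) and at T1 (2.08 ± 0.41, adjusted p = 0.0163), the latter not without B10 T1 replicate 2 or NOD T1 replicate 3 (range 1.48 to 2.67). With eBayes trend and robust settings, the T0 calls of Slc6a9, Slc43a1 and Slc43a3 and the T1 call of Slc6a9 ended. Slc43a3, a purine nucleobase carrier, read 7.83, 7.65 and 8.98 in B10 at T0 and 8.29 and 9.33 at T1, and 9.70, 9.14 and 10.07 in NOD at T0 and 9.74 and 10.41 at T1. Its difference of 1.48 ± 0.36 at T0 was called (adjusted p = 0.0292, not without B10 T0 replicate 1 or 2 or NOD T0 replicate 1 or 3), and that at T1 was 1.27 ± 0.44 (adjusted p = 0.15).

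Slc6a20a, a proline and imino acid carrier, read 6.30, 6.02 and 6.44 in B10 at T0 and 6.14 and 6.57 at T1, and 7.12, 6.61 and 7.14 in NOD at T0 and 7.07 and 7.24 at T1. It was higher in NOD at T0 (0.70 ± 0.16, adjusted p = 0.0224) and at T1 (0.80 ± 0.20, adjusted p = 0.0448). The first call ended without B10 T0 replicate 1 or 2 or NOD T0 replicate 1 or 3, and the second without B10 T0 replicate 1, B10 T1 replicate 2, NOD T0 replicate 1 or 3, or either NOD T1 array. Slc38a5, a glutamine and histidine carrier (1.57 ± 0.43 at T0, adjusted p = 0.0532), and Slc16a10, the aromatic amino acid carrier TAT1 (0.81 ± 0.24, adjusted p = 0.079), had NOD arrays above all B10 arrays within each state, without a call. Slc38a5 passed at T0 without B10 T0 replicate 3, either B10 T1 array or NOD T0 replicate 2, and Slc16a10 without B10 T0 replicate 3 or either B10 T1 array.

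Within each of the 4 groups, the arrays of Slc43a1, Slc43a3, Slc6a9, Slc6a20a and Slc38a5 stood in the order of the red cell marker mean. These were 5 of the 87 transporters, whereas 1.49% of all genes did so. With that mean as a covariate, 0 of 87 were called at T0 (limma), where 136 of all genes were called in place of 1155, and 1 was called at T1, which was not among the 4. The T0 value became -0.29 for Slc43a1 (adjusted p = 0.803), -0.026 for Slc43a3 (adjusted p = 0.993) and 0.32 for Slc6a9 (adjusted p = 0.562). All 5 NOD arrays had a higher marker mean than all 5 B10 arrays, so strain and red cell RNA cannot be told apart fully.

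**Figure D5:**
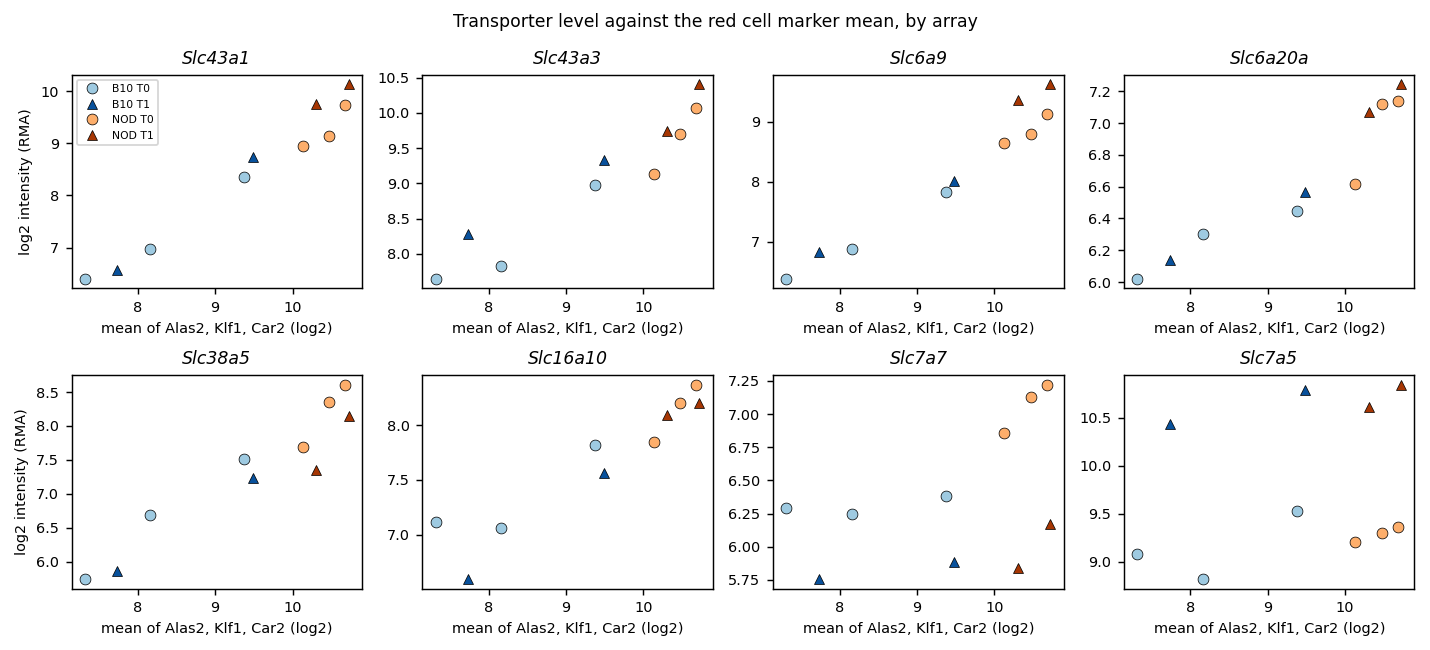
Log2 intensity of 8 transporters against the mean of Alas2, Klf1 and Car2 (log2) on each of the 10 arrays, coloured by group, with circles for T0 and triangles for T1. Slc43a1, Slc43a3, Slc6a9 and Slc6a20a climb with the marker mean across B10 and NOD arrays, Slc7a7 separates by strain at T0, and Slc7a5 separates by state.

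The other strain differences were smaller. Slc7a7 was higher in NOD at T0 (0.76 ± 0.12, adjusted p = 0.00241) and Slc7a8 too (0.81 ± 0.13, adjusted p = 0.00337), with no overlap of the arrays given above and with a call in each omission of a single array. Monocyte and macrophage markers were higher in NOD at T0 as well (6 of 9 called, median 0.85), and so were neutrophil markers (4 of 8, median 0.57), where 3.44% of all genes were higher. At T1 none of these markers was called (medians 0.47 and 0.17). The part of these cells in the result was not tested. The values at T1 were 0.18 for Slc7a7 (adjusted p = 0.586) and 0.40 for Slc7a8 (adjusted p = 0.224). Both genes lay near or below the background mark at T1, which limits what these values show. With the red cell mean as covariate the T0 values were 0.55 (adjusted p = 0.313) and 0.76 (adjusted p = 0.207).

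Slc16a1 was higher in NOD at T0 (0.49 ± 0.12, adjusted p = 0.0312), a call that ended without B10 T0 replicate 1 or 2 or NOD T0 replicate 1 or 3 (range 0.35 to 0.59), and its value at T1 was 0.23 (adjusted p = 0.494). Slc2a4 read 5.85, 6.03 and 6.31 in B10 at T0 and 6.33 and 6.32 at T1, and 6.50, 6.42 and 6.57 in NOD at T0, with both NOD T1 arrays at 6.89 or above. It was called higher in NOD in both states (0.43 ± 0.11, adjusted p = 0.0417, and 0.62 ± 0.14, adjusted p = 0.0267). The T0 call held in 3 of 10 omissions, and the T1 call ended without either B10 T1 array or NOD T1 replicate 3.

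Slc2a9 was lower in NOD at T0 (-0.43 ± 0.10, adjusted p = 0.0198), where it read 7.05, 7.04 and 6.97 in B10 and 6.41, 6.73 and 6.61 in NOD. At T1 it read 6.47 and 6.31 in B10 and 6.38 and 6.42 in NOD, and the strains overlapped. Its T0 call ended without B10 T0 replicate 1 or 2 or NOD T0 replicate 1 or 3. Slc38a1 was lower in NOD at T0 (-0.38 ± 0.10, adjusted p = 0.0496), a call that ended on omission of each of the 6 T0 arrays, with every array scaled to one 75th percentile, with its probe sets averaged, with every probe set tested and with the red cell covariate. Slc6a13 was called at T1 (0.50 ± 0.13, adjusted p = 0.0499), which ended in 9 of 10 omissions, the exception being B10 T0 replicate 3.

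Genes around these carriers responded too. Of 14 measured accessory proteins and regulators, 4 rose and 6 fell in B10, and 3 rose and 6 fell in NOD, or 71.4% and 64.3% called, against 31.8% and 35.5% of all genes and 46.4% and 48.5% of those above the background mark. Myc, which activates amino acid carriers in T cells, rose by 3.17 and 2.67, and Hif1a, which does so for glucose carriers, by 1.08 and 0.97. Txnip, an arrestin that draws glucose transporters from the membrane, fell by 1.52 in B10 and by 1.63 in NOD, and Nedd4l, a ubiquitin ligase, fell by 0.61 and 1.13. Of 12 enzymes of glutamine and aspartate use, 5 rose and 1 fell in B10, and 6 rose and 2 fell in NOD, where 13.7% of all genes rose and 18.1% fell in B10, and 16.1% rose and 19.5% fell in NOD. Ppat and Cad start purine and pyrimidine synthesis from glutamine. Ppat rose by 1.23 in B10 and 1.34 in NOD, and Cad by 1.00 and 1.08. Got1, an aspartate aminotransferase, fell in NOD (-0.57 ± 0.13, adjusted p = 0.00384) with 0.22 in B10 (adjusted p = 0.258). The interaction was called for 0 of these 12 enzymes.

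Of 28 genes that report amino acids to mTORC1, 8 rose and 10 fell in B10, and 7 rose and 10 fell in NOD, or 64.3% and 60.7% called, beside the same shares of all genes as above. Sesn1 and Sesn3, inhibitory sestrins, both fell. Sesn1 fell by 1.73 in each strain and Sesn3 by 1.19 in B10 and 1.00 in NOD, while the leucine sensor Sesn2 had 0.32 in B10 (adjusted p = 0.069) and rose by 0.91 in NOD (adjusted p = 6.63e-05). The interaction was called for 0 of these 28 genes. Rragd, a Rag GTPase, rose by 1.70 and 1.37, and Fnip1, a partner of folliculin, by 1.57 and 1.54. Depdc5 and Nprl2, subunits of the inhibitory GATOR complex, fell too, Depdc5 with -1.04 (B10) and -0.96 (NOD) and Nprl2 with -0.95 and -1.33.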

How the data were processed

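RNA of CD4-positive spleen cells was measured on 10 Affymetrix arrays, 1 per sample, in 4 groups of strain and state. Per the submitters' processing notes, RMA (Affymetrix Power Tools) gave the authors' deposited log2 intensities. Version and options are not given in the sources used here, and base 2 is taken from how far the values reach. RMA compresses differences near background. Of 35486 probe sets, 21789 have 1 gene symbol in the platform table, 1621 several and 12076 none listed. For each of 19938 genes the probe set with the highest overall mean was used, and 3 members had more than 1.

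All arrays entered 1 limma 3.58.1 model (R 4.3.3) with 4 group means (6 residual and 6.30 prior degrees of freedom) and eBayes, two-sided, with Benjamini-Hochberg adjustment over all genes and a threshold of 0.05. It was tested on simulated data with independent noise on each array. That simulation held no effect shared between arrays, such as red cell content, and so cannot show how the model behaves under one. Arrays are given one by one for 15 transporters known in T cells, for members called with at least 2-fold stimulation and for members called between strains, 25 in all. Members, lists and alternatives, which are an array scaling, probe set choice, filters, eBayes settings, array weights, blocks, a red cell covariate and omissions, were chosen with earlier results of these data known. T0 and T1 arrays of one number correlated in their deviations from group means at 0.41 and 0.40 in B10 and -0.014 and 0.22 in NOD. No block was used in the main model because NOD replicate 2 showed no such correlation (-0.014). The B10 arrays of one number thus shared part of their deviations, which that model leaves out. Fits with a block are given below. Figures were drawn with matplotlib 3.10.9.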

Additional observations from a re-analysis of the deposited data

How the results depend on the processing

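The count of members called with stimulation in B10 was 27, and stayed between 18 and 28 over omissions of single arrays; it was 17 without both B10 arrays of replicate 3. In NOD it was 29 (25 to 33 over omissions), and 19 with brighter genes alone, where 33 members are tested. At T0 the strains differed in 10 (3 to 12 over omissions), in 13 without both B10 arrays of replicate 3, in 4 with every probe set tested and in 0 with the red cell mean as covariate. At T1 they differed in 4 (0 to 7 over omissions), in 0 with every probe set tested or array weights, in 1 with only the arrays compared or the red cell covariate, and in 7 without both B10 arrays of replicate 3. The interaction was called for 0 members in each omission, and for 1, Slc1a4, with eBayes trend and robust settings, the red cell covariate (Slc1a4 1.00, adjusted p = 0.014) or the fixed replicate block. With that block, which pairs T0 and T1 by number, 26 members were called in B10 and 30 in NOD, and the rise of Slc2a1 in B10 was no longer called; with a random block the counts were 28, 31, 11, 4 and 0 in the 5 contrasts. For T0, only the red cell covariate turned signs of named calls, to -0.29 for Slc43a1 and -0.026 for Slc43a3. Over the 25 members given by array and all alternatives, 910 repeats of a call kept it, 116 lost it and 2 reversed, and 37 repeats of a value without a call gained one. Causes of these changes were not tested. Detection calls were not used here, so values near background limit what small differences show.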

Other observations

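Symbols that begin like the transporters but name other genes also moved. Slc7a6os, which lies opposite Slc7a6, rose by 0.70 in B10 (limma, adjusted p = 0.000289) and by 0.45 in NOD (adjusted p = 0.00707), while Slc7a6 rose by 0.64 and 1.02. The pseudogene Slc2a4rg-ps fell by 0.36 in B10 (adjusted p = 0.0152) and by 0.29 in NOD (adjusted p = 0.0398). Slc6a19os, below the background mark, was not called. Of 36 transporters at or below that mark, 5 were called in B10 and 6 in NOD, or 13.9% and 16.7%, against 6.49% and 13.1% of all genes at or below it. Of the 51 above it 22 and 23 were called, or 43.1% and 45.1%, against 46.4% and 48.5% of all genes above it.

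Of the 54 listed accessory, metabolic and sensing genes, 7 were called between strains at T0 (13.0%, against 5.79% of all genes) and 4 at T1 (7.41%, against 3.6%). Asns, which makes asparagine, and Gclm, a subunit of the enzyme that starts glutathione synthesis, were both higher in NOD at T0, by 1.53 (adjusted p = 0.00771) and 1.53 (adjusted p = 0.00736). Nprl2 was lower in NOD at T1 (-0.76 ± 0.15, adjusted p = 0.0169), and Got1 too (-0.79 ± 0.14, adjusted p = 0.0103). The motif AGATAA, a site of GATA factors, was searched after the strain values were seen. It was in 4 of the 85 member stretches before a start site (4.71%), against 9.99% of all.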
